A study of Homo sapiens with 15 samples.

Results

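Gene expression was compared between 2 groups of cells of SW480, a line derived from a human colorectal tumour and given as intestinal epithelium by the labels. Both had received lipopolysaccharide (LPS) for 4 h at 1 µg/ml. The first group, labelled PINT shRNA1+LPS, expressed a short hairpin against PINT from a lentivirus, and the second, labelled LPS, was wild-type by the series design. The 6 libraries, 3 in each group, were taken by their labels from 15 labelled samples, and 16127 of 57905 listed genes had at least 0.5 FPKM (fragment counts divided by transcript length and library size) in at least 3 of these 6 libraries and were tested. For reference, the libraries labelled PINT shRNA1 and Control, the same pair of cell types exposed to phosphate-buffered saline in place of LPS, are given beside them. No group with a non-targeting hairpin is among the labels, only 1 hairpin sequence is represented here, and they do not say whether replicates came from separate cultures, so p-values here speak for the spread among these libraries alone, which may be technical.

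LPS is a component of the outer wall of Gram-negative bacteria. It is sensed at the cell surface by TLR4, and the adaptor MYD88 and the IRAK kinases relay the signal to the IKK kinases, which release NF-kB dimers such as p65 (RELA) with p50 to switch on chemokine, cytokine and acute-phase genes. Among those targets are inhibitors such as TNFAIP3 and TNIP1 that damp the pathway again. LINC-PINT is a long non-coding RNA transcribed next to MKLN1, and the series title names p65 and EZH2 as its partners. EZH2 is the enzyme of Polycomb repressive complex 2, which methylates histone H3.

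Total read counts are unknown, because the deposited values are FPKM. Depth relative to a control library, read from the steps of the low values, was 0.848 to 0.858 in the LPS libraries and 1.3 to 1.51 in the PINT shRNA1+LPS libraries, and genes above 0 numbered 27078 to 27425 and 30950 to 31961. Pearson correlations of log2 values were 0.984 to 0.991 within the groups and 0.973 to 0.974 between them. The epithelial markers EPCAM, KRT8, KRT18, KRT19, CDH1, CDX2 and VIL1 were all above 0 in every library, and of 8 leukocyte markers PTPRC and MS4A1 were at or near 0, while CD68 and LYZ reached 1.76 and 2.19 FPKM. Unless another unit is named, single values below are FPKM of a library, means are given ± SD over 3 libraries, and a change is the log2 fold of PINT shRNA1+LPS against LPS ± SE, computed on log2(FPKM + 0.5), so that changes of low genes come out too small. Calls were made with limma where the Benjamini-Hochberg adjusted p over all tested genes was under 0.05, and "rose" and "fell" are used of called genes only.

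The targeted transcript went against the label. LINC-PINT (ENSG00000231721) stood at 2.4, 2.82 and 1.91 in LPS replicates 1 to 3 and at 3.54, 4 and 4.08 in those labelled PINT shRNA1+LPS. Every library labelled with the hairpin was above every library labelled without it, and the change was 0.61 ± 0.133 (limma, adjusted p = 0.0164), or 1.63-fold in mean FPKM. A two-sided exact permutation test of these 3 against 3 libraries gave p = 0.1, the smallest value this design allows. Without PINT shRNA1+LPS replicate 2 or replicate 3 the call was lost, with limma adjusted p of 0.06 and 0.0599. Because of this, the groups are called by their labels throughout, and none of the directions below can be taken for the result of losing PINT. The value covers the gene as a whole and does not show which transcript the hairpin matches.

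MKLN1, the neighbouring gene, which GENCODE lists as overlapping LINC-PINT on the opposite strand, was at 9.43, 7.02 and 9.95 in LPS and at 13.5, 12.1 and 11.4 in PINT shRNA1+LPS, a change of 0.47 ± 0.136 (limma, adjusted p = 0.0417). The strandedness of the counting is not given in the sources used here, so reads of the pair may not have been told apart. The MKLN1 call was lost without LPS replicate 1 and without any 1 of the PINT shRNA1+LPS libraries, where the limma adjusted p was 0.0602 to 0.124, and in 10 of 20 alternatives in all, median scaling and the fit of all 12 libraries among them (0.0612 and 0.0521). EZH2 was at 29.4 ± 1.33 in LPS and 29.9 ± 0.772 in PINT shRNA1+LPS, with a change of 0.023 ± 0.0488 whose sign turned under median scaling (-0.021), under quantile normalization (-0.0021) and without LPS replicate 1 (-0.014). Of the 11 genes of Polycomb repressive complex 2 and its partners, 2 rose and 1 fell. These 27.3% called lie near the 29.7% of all genes tested, so the count is no result about the list. JARID2, an accessory subunit, rose from 3.51 ± 0.289 to 7.51 ± 0.221 (1 ± 0.0767). PHF1 rose by 0.30 ± 0.0681, a call lost without PINT shRNA1+LPS replicate 1 or 2 (limma adjusted p of 0.0614 and 0.0709) and after the GC correction (0.118). RBBP4, a histone-binding subunit, fell by 0.46 ± 0.0787.

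Across all genes, 4792 were called, which is 29.7% of those tested: 2908 were higher (18%) and 1884 lower (11.7%) in PINT shRNA1+LPS. The counts of every gene list are to be read beside these shares. Most calls were small, since 2882 of them (60.1%) had an absolute change under 0.5, while 183 rose and 99 fell by at least 1 on the log2 scale. The median change of all tested genes was 0.053, and the split of the calls followed the scaling: 60.7% of calls were higher as deposited, 49.9% after median scaling, 51.7% after quantile normalization and 47.9% after a GC correction chosen after seeing the data. Without 1 of the PINT shRNA1+LPS libraries, replicate 1, 2 or 3, the calls fell to 2948, 2975 and 3082. Groups that do not overlap were common, at 47.3% of the genes tested.

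**Figure D1:**
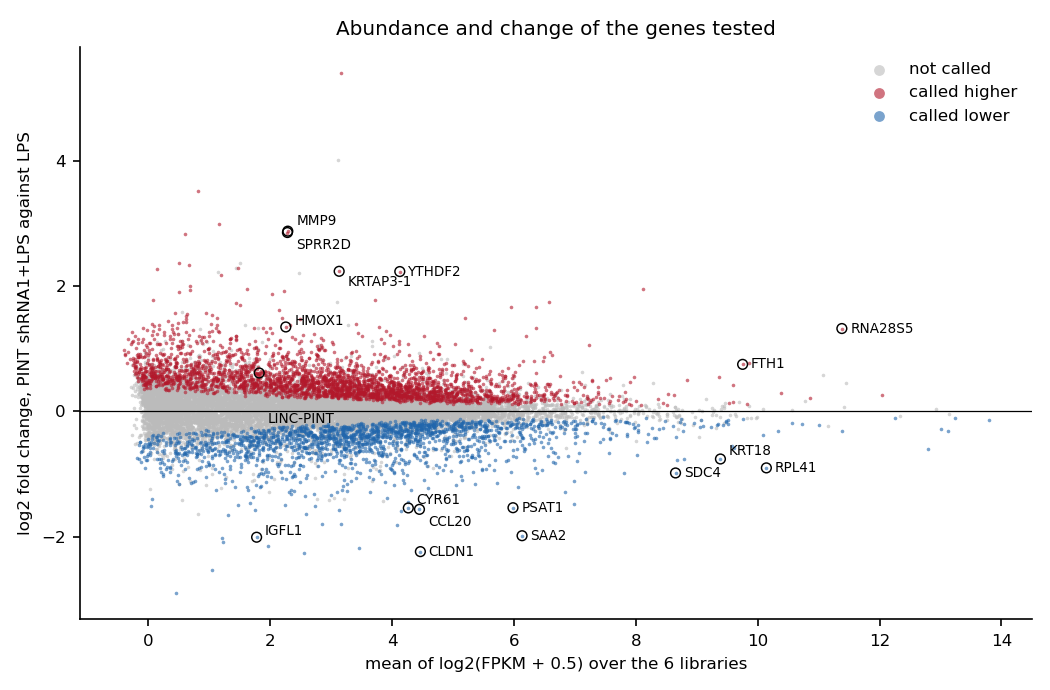
Each point is 1 of the 16127 genes tested. The horizontal axis is the mean of log2(FPKM + 0.5) over the 6 libraries and the vertical axis the log2 fold change of PINT shRNA1+LPS against LPS. Red genes were called higher, blue genes lower and gray genes were not called, with a selection circled and named. CLDN1 and SAA2 lie near -2 and MMP9 and SPRR2D near 3.

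Inflammatory chemokines were lower in the libraries labelled with the hairpin. Of 24 tested cytokines and chemokines, 14 fell and 2 rose, against 11.7% lower and 18% higher of all genes, and their median change was -0.41. In bulk libraries, fewer responding cells and less RNA per cell cannot be told apart. Another 11 of the 35 listed cytokine genes did not pass the low-value filter. The list was chosen with earlier results of these data known, and list members named here beyond the 4 with the smallest p were picked after their values were seen.

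CCL20, which attracts lymphocytes and dendritic cells through CCR6, was at 33.7, 39.2 and 38.5 in LPS and at 13.8, 11.5 and 11.4 in PINT shRNA1+LPS. The groups were far apart, and the change was -1.56 ± 0.0925 (limma, adjusted p = 0.000199). CCL7, a monocyte chemokine, had 14.9, 15.8 and 13.2 against 4.58, 4.46 and 4.75, a fall of 3.19-fold in mean FPKM and of -1.57 ± 0.0791 on the log2 scale. CCL2, its neighbour and the main monocyte attractant of the family, had 60.6, 62.2 and 59.6 against 33.5, 31.6 and 31, a change of -0.92 ± 0.0439. CXCL1, a neutrophil chemokine, had 37.9, 38.1 and 40 against 22.1, 20.5 and 21.2, a change of -0.85 ± 0.0473. In none of these 4 chemokines did a single library of one group reach the other. The other neutrophil chemokines CXCL2, CXCL3, CXCL5 and CXCL8 (listed as IL8) fell by 0.47, 0.70, 0.80 and 0.80, and CSF2, a growth factor for granulocytes and macrophages, by 0.52. CXCL5 did not pass an alternative filter of 1 FPKM, and its change ran from -1.24 to -0.56 over the other alternatives. The 2 that rose were IL32 (0.53) and TNFSF10 (0.72), the death ligand TRAIL.

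Short NF-kB sites lie close to the start of several of these genes. A kappa B type motif, GGG and TTTCC separated by any 2 bases and read on both strands, occurred in the promoter window (250 bases before to 50 bases after the annotated start, RefSeq, GRCh38.p14) of 8 of the 17 cytokine genes with an entry, or 47.1%, against 1.92% of all 27305 promoters and 2.23% of the 10737 tested genes with an entry. The 8 were CCL20, CXCL1, CXCL2, CXCL3, CXCL5, CXCL6, LTB and IL32, of which 6 fell, IL32 rose and CXCL6 was not called. In the list of other NF-kB targets given below, 3 of 20 genes with an entry held the motif (15%), and 3 of 9 NF-kB inhibitors did (33.3%). Such lists are grouped by role, so a higher share than over all promoters may come with that choice. The promoters of CCL20 (chr2:227813592-227813891, plus strand) and CXCL1 (chr4:73869143-73869442, plus strand) are shown because both genes fell and both are among the few whose change differed with and without LPS. Capitals mark the match, which describes the letters only and is not evidence of binding.
CCL20: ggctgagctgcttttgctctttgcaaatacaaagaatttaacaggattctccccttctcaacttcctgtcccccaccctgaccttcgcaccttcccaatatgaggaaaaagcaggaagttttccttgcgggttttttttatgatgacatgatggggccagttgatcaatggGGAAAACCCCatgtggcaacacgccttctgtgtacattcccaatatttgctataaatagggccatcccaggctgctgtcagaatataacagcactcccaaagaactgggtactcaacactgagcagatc
CXCL1: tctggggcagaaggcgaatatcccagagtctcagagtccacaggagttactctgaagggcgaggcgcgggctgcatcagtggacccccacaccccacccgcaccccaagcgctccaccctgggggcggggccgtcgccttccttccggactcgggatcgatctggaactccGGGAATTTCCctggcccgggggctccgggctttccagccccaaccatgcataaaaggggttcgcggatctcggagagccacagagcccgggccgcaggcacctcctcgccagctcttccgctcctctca

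Several acute-phase and adhesion genes of the pathway were lower as well. In a further list of 29 tested NF-kB targets, 12 members fell and 2 rose, with a median of -0.18. In PINT shRNA1 against Control, without LPS, 9 of them were called lower and 7 higher, with a median of -0.057. SAA2 (-1.36) and SAA1 (-1.09) were among those called lower there. SAA2, a serum amyloid A protein of the acute phase, had 136.5, 137.9 and 142.9 in LPS against 33.4, 36.5 and 34.5 in PINT shRNA1+LPS, the change with the smallest p of the list (-1.98 ± 0.0443, limma, adjusted p = 1.13e-05). SAA1 fell from 210.2 ± 6.58 to 75.2 ± 3.55 and SAA4 from 3.98 ± 0.986 to 0.916 ± 0.224, so all 3 named serum amyloid genes were lower, and reads may have been shared among these similar and partly overlapping genes. SDC4, a cell-surface proteoglycan, had 566.2, 570.2 and 558.9 against 296.1, 279.9 and 281.6 (-0.98 ± 0.0322). ICAM1, the adhesion molecule that binds leukocyte integrins, fell from 100.6 ± 2.31 to 43.5 ± 2.59, and CD83, C3 and BIRC3 fell by 1.19, 1.11 and 0.93.

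MMP9, a gelatinase that is also in the NF-kB target list, ran the other way and had the highest change among the named genes. It was at 1.26, 1.49 and 1.17 in LPS and at 12.9, 13.2 and 12.2 in PINT shRNA1+LPS, a 9.77-fold difference in mean FPKM (2.88 ± 0.0881, limma, adjusted p = 2.28e-05). In Control and PINT shRNA1 its means were 0.769 ± 0.0357 and 10.4 ± 1.08.

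**Figure D2:**
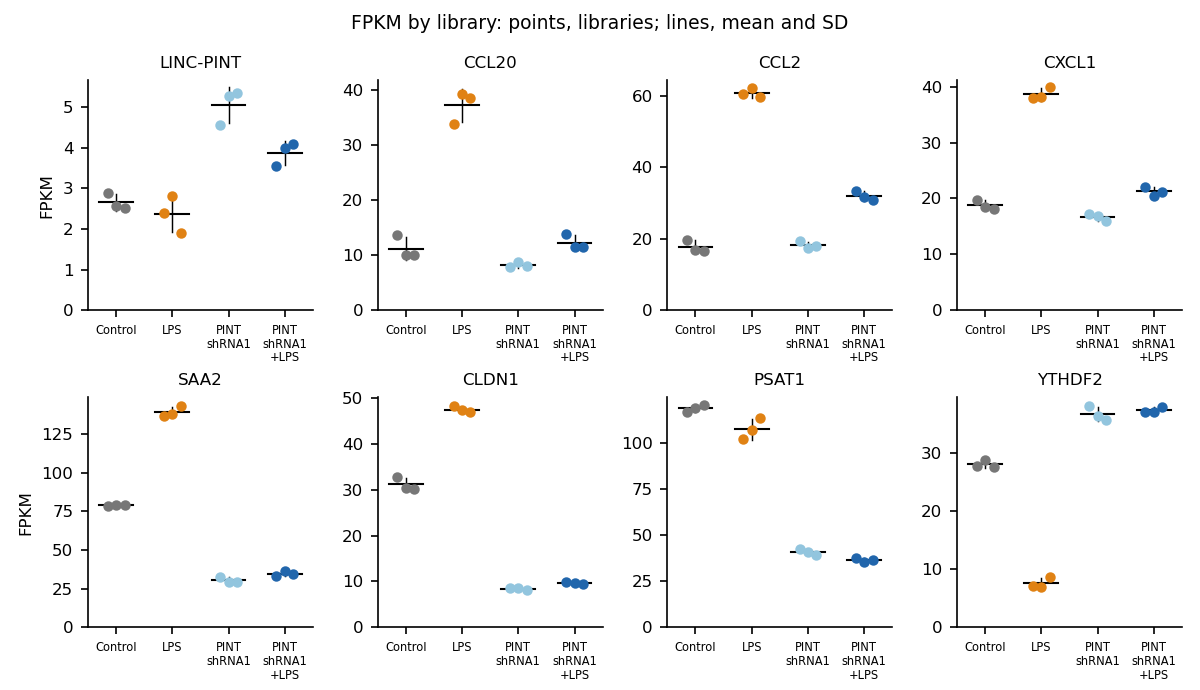
FPKM of 8 genes (vertical axes, each from 0) in the libraries of the 4 groups. Points are libraries, horizontal lines are means and vertical lines the SD over 3 libraries. CCL20, CCL2 and CXCL1 were highest in LPS, SAA2, CLDN1 and PSAT1 were low in both groups labelled with the hairpin, and YTHDF2 was lowest in LPS.

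Upstream of these targets, the receptor itself was lower. TLR4 had 5, 4.74 and 5.24 in LPS against 2.3, 2.17 and 2.08, a change of -1.03 ± 0.0776 (limma, adjusted p = 0.00043), and it was at 5.85 in Control and 2.33 in PINT shRNA1. Of 14 tested genes of the receptor complex and its adaptors, 5 fell and 1 rose, or 42.9% called against 29.7% of all genes. IRAK2 fell by 0.64 and TRAF3 by 0.21, while IRAK1 rose from 46.6 ± 1.77 to 67.9 ± 3.75. MYD88, the main adaptor, had 8.99, 4.04 and 8.92 against 3.43, 2.92 and 3. LPS replicate 2 lay close to the other group, and the call (-1.04, limma, adjusted p = 0.0366) was lost without LPS replicate 1 or 3 or any PINT shRNA1+LPS library (adjusted p of 0.0786 to 0.102). The IRAK4 call (-0.58) was likewise lost without any LPS library or without PINT shRNA1+LPS replicate 1 or 2 (adjusted p of 0.0743 to 0.105). LY96 and CD14, the co-receptors of TLR4, did not pass the filter.

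Among 11 NF-kB subunits and kinases, 5 fell and 3 rose. The subunits RELB and NFKB2, themselves targets of the pathway, fell by 0.82 ± 0.0918 and 0.63 ± 0.045, and REL and NFKB1 by 0.40 and 0.31, the NFKB1 call being lost without PINT shRNA1+LPS replicate 2 or 3 (limma adjusted p of 0.0535 and 0.0563). RELA had 16.6, 16.5 and 13.6 in LPS and 13.3, 25 and 22.5 in PINT shRNA1+LPS. The groups overlapped, and the change of 0.33 ± 0.227 was not called (limma, adjusted p = 0.326), although without PINT shRNA1+LPS replicate 1 it was (adjusted p = 0.0205). Of the kinase genes, IKBKB rose by 0.44 and IKBKE fell by 0.38. Of 10 inhibitors of NF-kB, 4 fell and 1 rose, or 50% called against 29.7% of all genes. TNIP1 fell from 128 ± 3.23 to 80.4 ± 3.01, TNFAIP3 from 14 ± 0.464 to 11.2 ± 0.223, CYLD by 0.41 and NFKBIE by 0.32. NFKBIB rose by 0.60, a call lost without LPS replicate 1 or 2 or PINT shRNA1+LPS replicate 1 or 3 (limma adjusted p of 0.104 to 0.128).

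Interferon-stimulated genes were called in both directions. Of 35 tested, 10 rose and 5 fell, against 18% higher and 11.7% lower of all genes, with a median of 0.10, and the number that rose was 6 to 12 over the alternative settings. ISG15, a ubiquitin-like antiviral protein, had 10, 11.9 and 11 in LPS against 20.3, 20.9 and 19.1 (0.85 ± 0.0734), IFITM1 rose by 0.83 ± 0.104 and IFI44 and OASL by 1.26 and 1.13. IFI44 is a low gene that did not pass an alternative filter of 1 FPKM. Its change ran from 0.79 to 2.78 over the other alternatives, so its size is uncertain. IFIH1, a sensor of double-stranded RNA, fell by 0.64 ± 0.0774. Of 14 class I antigen presentation genes, 6 rose and 1 fell, with a median of 0.32; HLA-B rose from 60.4 ± 6.79 to 105.5 ± 6.83 and the immunoproteasome subunit PSMB8 from 16.6 ± 0.294 to 21.8 ± 0.606. The similarity of the class I genes makes the division of reads among them uncertain. Of 14 genes that process short hairpins, 2 rose and 3 fell, or 35.7% called against 29.7% of all genes. DROSHA and XPO5 rose by 0.45 ± 0.0816 and 0.35 ± 0.0544, and RAN, TNRC6B and AGO4 fell by 0.22, 0.46 and 0.54, the AGO4 call being lost without PINT shRNA1+LPS replicate 1 or 2 (limma adjusted p of 0.057 and 0.0585).

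Epithelial structure genes fell in part. CLDN1, the sealing claudin of tight junctions, had 48.1, 47.3 and 46.8 in LPS against 9.87, 9.76 and 9.35 in PINT shRNA1+LPS, a 4.91-fold fall in mean FPKM (-2.24 ± 0.0431, limma, adjusted p = 9.91e-06). Of 16 claudin and tight-junction genes, 5 fell and only CLDN15 rose, or 37.5% called against 29.7% of all genes. MARVELD3 and TJP1 fell by 1 and 0.62. Of 15 integrins, 8 fell and 4 rose (80% called). ITGB8, a subunit of the receptor that activates TGF-beta, had 13, 13 and 12.8 against 3.5, 3.31 and 3.23 (-1.80 ± 0.059), and ITGB4, the hemidesmosome subunit, fell by 0.78 ± 0.0469, while ITGA5 rose by 0.52. DAG1, the dystroglycan gene that links cells to laminin, fell from 23.7 ± 7.45 to 4.82 ± 1.56, with 15.1 in LPS replicate 3 against 28 in the other two.

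Keratins were called in both directions. KRT18, a keratin of simple epithelium, had 874.5, 870.3 and 871.5 in LPS against 516.3, 512.7 and 515.9 (-0.76 ± 0.0237), KRT8 fell from 960.9 ± 25.4 to 638.7 ± 21.5 and KRT19 by 0.36 ± 0.0268. VIL1, the brush-border protein villin, fell from 9.92 ± 0.556 to 3.68 ± 0.227, and 6 of the 11 tested genes of intestinal epithelial identity fell while CDX2 and MUC13 rose by 0.62 and 0.50. The summed FPKM of the 7 epithelial markers, which these keratins dominate, was 2363.2 to 2406.6 in LPS and 1546.5 to 1606.5 in PINT shRNA1+LPS. Of 19 genes of skin-type keratins, hair keratins and the cornified envelope, 10 rose and 4 fell, with a median of 0.50. SPRR2D, an envelope precursor, had 1.54, 1.44 and 0.991 against 11.8, 13.3 and 12.7 (2.86 ± 0.132), KRTAP3-1, a hair keratin-associated protein, rose from 3.54 ± 0.216 to 18.6 ± 1.88, and KRT81 and KRT7 rose by 1.28 ± 0.074 and 1.15 ± 0.0743. KRT7, although counted in this list, is also a keratin of simple epithelium, and the keratin KRT23 rose by 0.53 ± 0.0435. KRT5, a basal keratin, fell from 578.8 ± 16.8 to 341.7 ± 32.3.

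Genes of matrix and mesenchymal character went both ways. Of 18 genes of epithelial-mesenchymal transition and cadherins, 6 rose and 6 fell, or 66.7% called against 29.7% of all genes. VIM and SPARC, mesenchymal genes, rose by 0.44 ± 0.0429 and 1.21 ± 0.104, and ESRP1, an epithelial splicing regulator, fell by 0.99 ± 0.0575. COL7A1, the anchoring-fibril collagen, rose from 2.03 ± 0.372 to 7.26 ± 0.115 and HAS3, a hyaluronan synthase, from 1.66 ± 0.388 to 7.34 ± 0.325. No gene of the fibroblast and endothelial list was called: 1 of its 9 genes, COL1A1, was tested (0.842 ± 0.202 and 0.956 ± 0.245). COL1A2, COL3A1, DCN, LUM and CDH5 were at or near 0 in all 6 libraries, and the list summed to 0.925 to 1.32 FPKM in LPS and 0.978 to 1.51 in PINT shRNA1+LPS. The 8 leukocyte markers summed to 3.01 to 4.11 and 3.66 to 4.2; CD68 rose (0.63 ± 0.137) and LYZ fell (-0.46 ± 0.118), calls that were lost without PINT shRNA1+LPS replicate 1 or 2 for CD68 (limma adjusted p of 0.0597 and 0.0645) and without any 1 library other than LPS replicate 2 for LYZ (0.06 to 0.0943).

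Targets of YAP and TEAD, the effectors of the Hippo pathway that respond to adhesion and cell density, were lower in part. Of 19 tested, 9 fell and 2 rose, with a median of -0.19 and 5 to 11 falling over the alternative settings. CYR61, a matricellular protein, had 31.9, 31.2 and 33.9 in LPS against 10.4, 11 and 11 (-1.54 ± 0.0526, limma, adjusted p = 2.98e-05). CTGF, its relative, fell from 9.03 ± 0.312 to 3.25 ± 0.0744, CRIM1 by 0.78 ± 0.0427 and ANKRD1 by 0.58 ± 0.0398. The TEAD type motif GGAATG, read on both strands, was found in the promoter windows of 6 of the 12 members with an entry (50%), against 14% of all promoters and 10.9% of the tested genes. These members were listed as targets, so a higher share may come with that choice. The promoter of CTGF (RefSeq symbol CCN2, chr6:131951323-131951622, minus strand) is shown because it held 3 such matches, in capitals.
CTGF: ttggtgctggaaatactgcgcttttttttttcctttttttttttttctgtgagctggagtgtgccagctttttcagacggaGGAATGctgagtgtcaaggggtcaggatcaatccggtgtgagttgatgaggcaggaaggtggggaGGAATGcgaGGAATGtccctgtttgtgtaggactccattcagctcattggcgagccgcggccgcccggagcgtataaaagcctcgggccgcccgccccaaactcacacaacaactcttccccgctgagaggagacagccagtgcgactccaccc

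Wnt target genes, which are active in many colorectal cancers, moved apart from each other. Of 24 tested, 9 rose and 4 fell, against 18% higher and 11.7% lower of all genes, with a median of 0.19. AXIN2, a feedback inhibitor of the pathway, had 129.8, 131.5 and 127.8 in LPS against 185.5, 187.6 and 179.8 (0.50 ± 0.0317). SP5 rose from 17.3 ± 1.33 to 33.9 ± 0.908 and the transcription factor LEF1 from 17.5 ± 0.135 to 27 ± 0.398. CCND1, the cyclin of the G1 phase and also a Wnt target, had 532.1, 536.4 and 532.7 against 306.1, 312.9 and 312.1 (-0.78 ± 0.0257).

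Of 38 genes of G2 and mitosis, 15 rose and 2 fell, or 44.7% called against 29.7% of all genes. The number that rose ranged from 9 to 19 over the alternatives. AURKB, a mitotic kinase, was at 0.57 ± 0.0592 and KIF14 at 0.41 ± 0.0542. Of 44 genes of DNA replication, 10 fell and 2 rose, against 11.7% lower and 18% higher of all genes. Over the alternatives 8 to 14 fell and 1 to 4 rose. The 27.3% called in either direction lie near the 29.7% of all genes, so that pooled count is no result about the list. GINS3 fell by 0.56 ± 0.0617. The cell-cycle inhibitor CDKN2D rose from 2.17 ± 0.315 to 4.96 ± 0.391. Of 29 genes that p53 can induce, 10 fell and 2 rose, or 41.4% called against 29.7% of all genes. Among those that fell were PHLDA3 (-1.03 ± 0.161), AEN (-0.51 ± 0.0589) and PLK2 (-0.49 ± 0.0607).

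Among metabolic genes, cholesterol synthesis had 17 of 26 genes lower and none higher, with a median of -0.44, and 16 or 17 genes fell and at most 1 rose under every alternative run. MSMO1 and CYP51A1, which remove methyl groups from lanosterol, fell from 63.5 ± 6.87 to 33.3 ± 2.21 and from 66.9 ± 4.56 to 38.9 ± 0.678, and FDPS, which makes farnesyl diphosphate, by 0.62 ± 0.0653. SCD, the desaturase of fatty acids, had 163.6, 167.2 and 177.9 in LPS against 100.8, 111.5 and 106.7 (-0.67 ± 0.051). It was among 6 of 18 fatty acid synthesis genes that fell, while 2 rose, or 44.4% called against 29.7% of all genes. In the serine synthesis and ATF4 amino-acid group, 19 of 33 genes fell and 2 rose, with a median of -0.41. PSAT1, a transaminase of serine synthesis, had 102, 106.8 and 113.3 against 37.8, 35.7 and 36.4 (-1.54 ± 0.0492, limma, adjusted p = 2.47e-05). The amino-acid transporters SLC7A11 and SLC7A5 fell by 1.58 ± 0.0909 and 0.78 ± 0.0358, the asparagine synthetase ASNS by 0.80 ± 0.0496, and ATF4 itself by 0.77.

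The sequence TGATGNAA, the core of the CEBP-ATF composite element through which ATF4 is known to act, was in the windows of 8 of the 30 members with an entry (26.7%), against 3.67% of all promoters and 1.57% of the tested genes. The genes were listed by role, so a higher share may come with that choice. Of those 8 genes 6 fell, beside 19 of 33 in the list as a whole. The promoter of ASNS (chr7:97872359-97872658, minus strand), the textbook example of this element, is shown with its single match in capitals.
ASNS: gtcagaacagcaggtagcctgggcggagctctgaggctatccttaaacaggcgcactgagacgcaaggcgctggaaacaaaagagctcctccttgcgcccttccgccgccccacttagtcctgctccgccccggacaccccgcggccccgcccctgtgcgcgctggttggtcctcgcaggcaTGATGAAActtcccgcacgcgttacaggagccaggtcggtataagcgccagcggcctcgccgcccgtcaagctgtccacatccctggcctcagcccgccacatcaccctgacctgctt

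**Figure D3:**
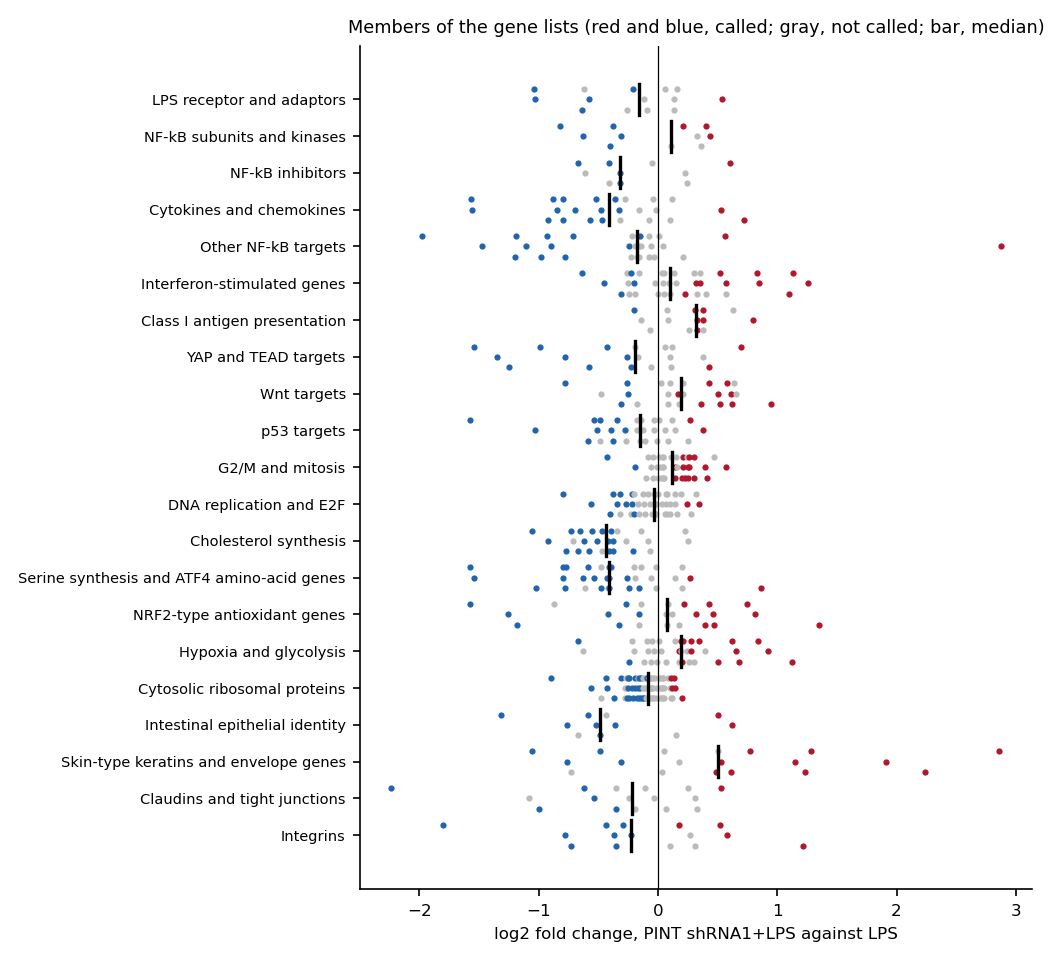
Log2 fold change of PINT shRNA1+LPS against LPS (horizontal axis) for the tested members of 21 gene lists (rows, with points spread vertically for legibility). Red and blue points were called, gray points were not, and the black bar is the median of the list. Cholesterol synthesis and the serine and ATF4 group lie to the left, with medians of -0.44 and -0.41, and the skin-type list has a median of 0.50.

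Other stress and energy genes were split. Of 24 antioxidant genes of the NRF2 type, 9 rose and 7 fell, or 66.7% called against 29.7% of all genes. HMOX1, heme oxygenase, had 2.55, 2.54 and 2.39 in LPS against 7.14, 7.36 and 6.87 (1.35 ± 0.0683). SRXN1 rose by 0.81 ± 0.0395 and the ferritin chains FTH1 and FTL by 0.75 ± 0.0673 and 0.43 ± 0.0291, while GPX2 and ALDH3A1 fell by 1.18 and 1.26. TFRC, the transferrin receptor, rose from 105.5 ± 24 to 217.3 ± 7.67, with 78.1 in LPS replicate 2. Of 36 hypoxia and glycolysis genes, 14 rose and 2 fell (44.4% called), with 8 to 15 rising over the alternatives. NDRG1, EGLN3 and P4HA1 rose by 0.84 ± 0.0589, 1.12 ± 0.147 and 0.65 ± 0.0544, and the glucose transporter SLC2A3 fell by 0.67 ± 0.0308.

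Of 78 cytosolic ribosomal protein genes, 25 fell and 5 rose, or 38.5% called against 29.7% of all genes. Their median was -0.081, and 16 to 41 fell over the alternatives. RPL41 stood out with 1552.6, 1561.7 and 1521.4 in LPS against 828.2, 819.6 and 833.2 (-0.90 ± 0.0253). Many ribosomal protein genes have near-identical processed copies, so the division of their reads is uncertain. Of the 13 mitochondrially encoded genes, 7 fell and 1, MT-ND1, rose (0.26 ± 0.029, but -0.11 and not called after quantile normalization). That is 61.5% called against 29.7% of all genes, but only 2 to 8 fell and 1 to 2 rose over the alternatives. All mitochondrially encoded genes together held 24.7 to 25.3% of FPKM in LPS and 23.5 to 24.8% in PINT shRNA1+LPS. The 28S ribosomal RNA entry RNA28S5 was at 2611.3, 1325.5 and 1385.1 in LPS and 4121.6, 5605.7 and 3259.7 in PINT shRNA1+LPS (1.32 ± 0.304, limma, adjusted p = 0.0201); these values varied within both groups, and the call was lost without LPS replicate 2 or 3 or PINT shRNA1+LPS replicate 1 or 2 (adjusted p of 0.0562 to 0.0625).

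The change was graded by base composition. Among protein-coding genes in 5 equal bins of exonic GC content (GENCODE 29, matched by gene ID for 96.3% of the tested genes), the median change climbed from -0.033 in the lowest bin to 0.17 in the highest, the share called higher from 11% to 30.4%, and the share called lower fell from 18.1% to 8.08%. Without LPS the medians of the same bins ran from 0.011 to 0.088. The median exonic GC was 50.3% for the cholesterol list, 48.2% for the cytokines and 56.5% for the skin-type list, and after the GC correction these lists had 17 lower, 15 lower and 2 higher, and 10 higher and 4 lower. Other lists moved: ribosomal proteins went from 25 to 41 lower and from 5 to 1 higher, immediate-early genes from 5 to 1 higher and matrix metalloproteinases and plasminogen activation from 6 to 3 higher. In all, 26 of 35 list medians moved by more than the spread between replicates after the GC correction. Median scaling, which takes no account of GC content, moved 30 of 35. The GC correction also shifts whole libraries, and the part of base composition in these moves was not tested. Depth also differed between the groups, as given above, and its part in these results was not tested.

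**Figure D4:**
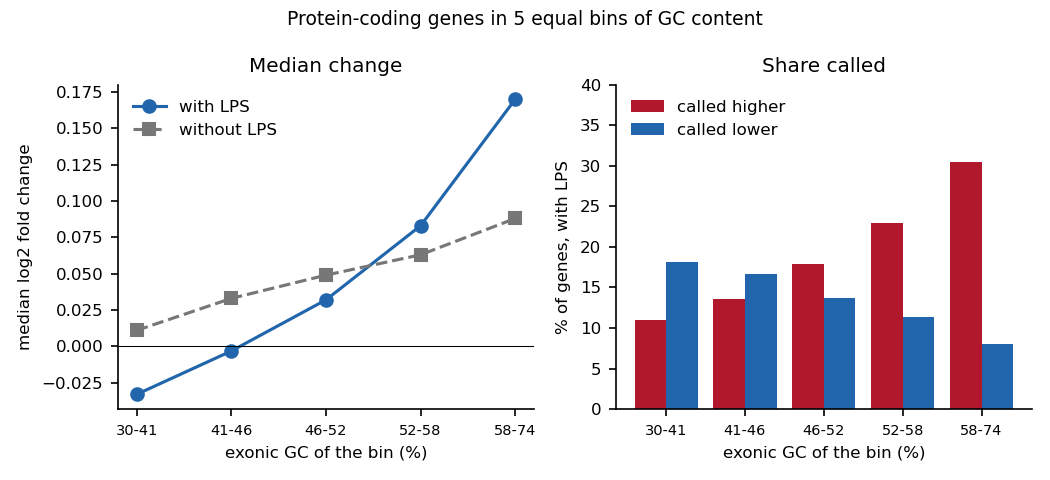
Protein-coding genes in 5 equal bins of exonic GC content (horizontal axes, range of each bin in %). The left panel gives the median log2 fold change with LPS (circles) and without LPS (squares), and the right panel the percentage of genes called higher (red) and lower (blue) with LPS. The share called higher climbs from 11% to 30.4% across the bins.

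The same labels can be compared without LPS in libraries that the contrast above does not use. PINT shRNA1 against Control gave 3667 calls among the same genes (22.7%), 2242 higher and 1425 lower. The split was 1768 higher and 1660 lower with median scaling and 1716 and 1735 with quantile normalization. Without PINT shRNA1 replicate 1, 2 or 3 the count was 2033, 2212 and 2177, and the shares that follow rest on the count with all libraries. Of the genes called with LPS, 2573 (53.7%) were also called without it, which is 70.2% of the calls without LPS; 2570 of these had the same sign, with 1534 higher and 1036 lower in both. Across the 16127 genes, Pearson's r of the log2 changes was 0.712, a description over genes that share libraries within each contrast. CLDN1 (-1.83), MMP9 (3.09), SPRR2D (3.12), PSAT1 (-1.53), CYR61 (-1.35), VIL1 (-1.32), TLR4 (-1.17) and HMOX1 (1.47) were called in the same direction without LPS. Cholesterol genes numbered 14 lower and none higher there and the serine and ATF4 genes 21 lower and none higher. Each PINT shRNA1 column carries an RNA number shared by a pair of labelled samples, and which of them it holds is not recorded.

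The cytokine group differed between the settings. Without LPS, 2 of the 24 cytokines fell and 2 rose, with a median of -0.12. The difference between the changes, tested as an interaction over all 12 libraries, was called for 21 genes (0.13% of those tested): 16 had a lower change with LPS and 5 a higher one, and 1280 genes had an unadjusted p under 0.05. Of these 21, 5 were in the cytokine list (CCL2, CCL7, CCL20, CXCL1 and LTB) and 4 in the list of other NF-kB targets (SAA2, SDC4, ICAM1 and SGPP2). The difference was -1.27 ± 0.13 for CCL7, -0.96 ± 0.0924 for CCL2, -0.84 ± 0.0433 for SDC4 and -0.68 ± 0.0721 for CXCL1 (limma, adjusted p of 0.00242, 0.00217, 9.19e-06 and 0.00293). CCL2 shows the pattern plainly: its means were 17.8 ± 1.69 in Control and 18.3 ± 0.937 in PINT shRNA1, but 60.8 ± 1.33 in LPS and 32 ± 1.3 in PINT shRNA1+LPS. CCL20 differed by -1.15 ± 0.168 (limma, adjusted p = 0.0283), a call that held in 11 of 21 alternatives and was lost without Control replicate 2 or 3, without LPS replicate 2 or 3, without any PINT shRNA1 column and without PINT shRNA1+LPS replicate 2 or 3 (adjusted p of 0.0717 to 0.0999). Across the cytokine list, 22 of 24 differences were below 0, with a median of -0.43. The share below 0 over all tested genes is not given here, so that count alone is no result about the list. Differences below 0 numbered 62 of 78 for cytosolic ribosomal proteins (median -0.062) and 6 of 24 for Wnt targets (median 0.13).

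YTHDF2, a reader of N6-methyladenosine in mRNA, had the smallest adjusted p among the genes with a higher change under LPS. It was at 7.19, 6.96 and 8.61 in LPS against 37.1, 37.1 and 38 in PINT shRNA1+LPS (2.23 ± 0.0817), and at 28.1 ± 0.706 in Control and 36.8 ± 1.17 in PINT shRNA1 (0.38 without LPS). The LPS libraries are the ones that stood apart from the other 3 groups. EMP2, an epithelial membrane protein, was at 17.2 ± 0.443 and 14 ± 0.431 with LPS and at 17.8 ± 0.165 and 6.46 ± 0.455 without, so the difference of 1.10 ± 0.0777 came from a change of -0.29 with LPS and -1.39 without. IGFL1, a secreted growth factor-like protein, had 5.95, 5.89 and 7.37 against 1.14, 1.18 and 1.31 with LPS (-2.01 ± 0.109) and a change of -0.59 without.

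**Figure D5:**
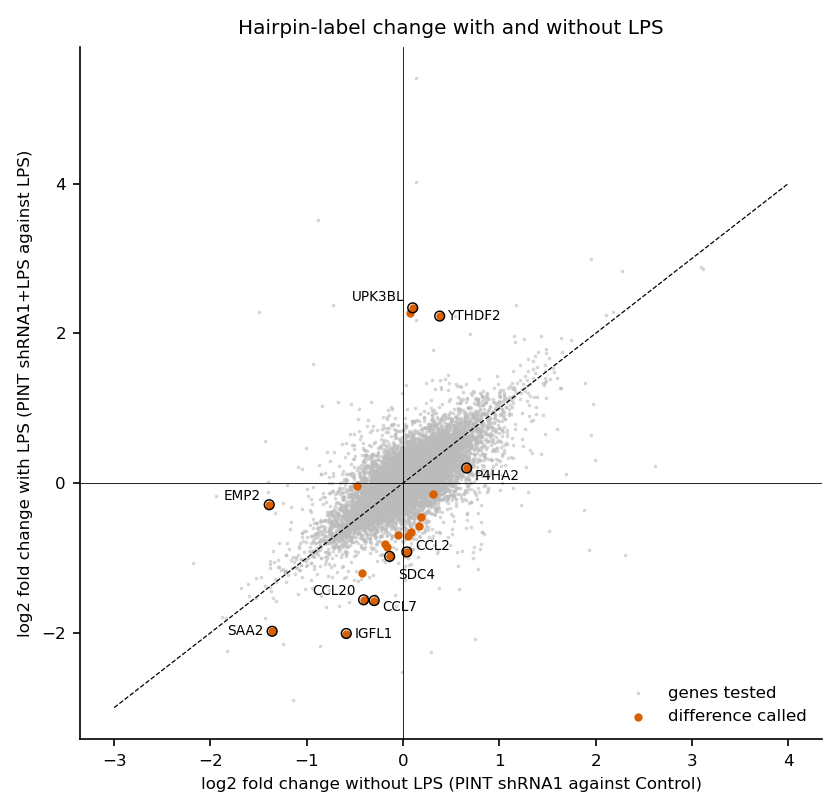
Each gray point is a tested gene, with the log2 fold change of PINT shRNA1 against Control on the horizontal axis and of PINT shRNA1+LPS against LPS on the vertical axis. Orange points are the 21 genes whose difference was called, some of them circled and named, and the dashed line marks equal changes. CCL2, CCL7, CCL20 and IGFL1 lie below the line and YTHDF2, UPK3BL and EMP2 above it.

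Some large changes rested on uneven libraries, and others did not. On log2(FPKM + 0.5), 847 tested genes ranged over 2-fold within a group, and 39 of them were called. The added 0.5 damps the spread of low genes, so those can vary more in FPKM without being counted. MFSD2B ran from 0.00743 to 0.315 within LPS and was not counted. IGF2 was at 3.67, 23.1 and 20.8 in LPS and 2.31, 2.81 and 1.56 in PINT shRNA1+LPS, HSPA2 at 1.15, 7.96 and 7.53 against 0.528, 0.815 and 0.587, the UQCR11 entry ENSG00000267059 at 4.37, 3.51 and 4.68 against 0.198, 2.57 and 0.196, and FBXO34 at 7.24, 7.81 and 8 against 2.54, 1.06 and 0.835. Their limma adjusted p-values were 0.0426, 0.0453, 0.0386 and 0.00341, and the IGF2 call was lost without LPS replicate 2 or 3 or any PINT shRNA1+LPS library (adjusted p up to 0.121), and likewise for HSPA2. The UQCR11 call was lost in 11 of 20 alternatives, while the FBXO34 call held in all 20. LRRC58 and SH3BGRL2, whose libraries lay close together within each group, fell from 31.3 ± 0.956 to 8.6 ± 0.124 and from 16.3 ± 0.807 to 4.33 ± 0.278. ATP6V0E2 fell by 1.51 ± 0.351 with 6.82 in LPS replicate 3 and 5.59 in PINT shRNA1+LPS replicate 3, the values nearest to each other, and its call was lost without LPS replicate 1 or 2 or PINT shRNA1+LPS replicate 1 or 2 (limma adjusted p of 0.0589 to 0.0691). MFSD2B, UPK3BL, ASMTL-AS1, KRT37, MYH7B, KCNA6, LINC00106 and LRRC55 rose by 1.58 to 2.37, with group means of 0.132 to 6.58 in LPS, where most were at a low level. MFSD2B, UPK3BL and KRT37 were below 0.5 FPKM in every LPS library and passed the filter only through the PINT shRNA1+LPS libraries. A rise was therefore the only large change they could show. MFSD2B also varied within Control (2.01, 0.023 and 0.0342) and within PINT shRNA1 (2.93, 0.0611 and 3.71).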

How the data were processed

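RNA was sequenced from SW480 cells, and the authors deposited 1 table of FPKM values per Ensembl gene. Per the submitters' processing notes, fastp, HISAT2 2.1.0, StringTie 1.3.4d and the build GRCh37/hg19 were used, with their roles not given. The table has 6 further columns that were left aside. Each PINT shRNA1 RNA number has a pair of labelled samples but 1 column.

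The filter required 0.5 FPKM or more in 3 or more of the 6 libraries, and log2(FPKM + 0.5) was fitted with limma 3.58.1 (R 4.3.3) on group means with an intensity trend and Benjamini-Hochberg adjustment. The difference with and without LPS was a contrast in a fit of 12 libraries. The procedure was tested on simulated data. Alternatives were other scalings, pseudocounts, filters, moderation, library weights, a replicate block and leaving out each library, with a GC correction, protein-coding genes only and the removal of genes over 2-fold within a group added after seeing the data.

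Named genes were the 14 highest and 14 lowest called changes where the higher group averaged 1 FPKM or more, with non-overlapping groups and no 2-fold spread within a group (clone names, pseudogenes and small RNAs left out), the 6 most abundant called genes each way with an absolute log2 change of at least 0.5, LINC-PINT, MKLN1, EZH2, RELA, TLR4, up to 4 members of each list with the smallest p, the 5 highest and 5 lowest differences with and without LPS, and 4 unstable genes. The 2-fold spread was taken on log2(FPKM + 0.5), so low genes could vary more than 2-fold in FPKM. Other names were chosen after their values were seen. The contrast and the 35 lists were chosen with earlier results of these data known. Gene type, GC content and overlaps came from GENCODE 29, a different build, by gene ID (15523 of the tested genes), and promoter sequences from RefSeq (GRCh38.p14) by symbol. Some genes that the rule selects are not reported here.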

Additional observations from a re-analysis of the deposited data

Results flagged for a closer look

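For 21 genes the change that goes with the hairpin label differed between LPS and saline, by the interaction term in limma (adjusted p under 0.05 over 16127 genes). The log2 difference, with LPS minus without, was below 0 for the chemokines and cytokines CCL7 (-1.27), CCL20 (-1.15), CCL2 (-0.96), LTB (-0.74) and CXCL1 (-0.68). It was also below 0 for SDC4 (-0.84), ICAM1 (-0.77), SGPP2 (-0.75) and SAA2 (-0.63) among other NF-kB targets. The remaining genes with a difference below 0 were IGFL1 (-1.42), PPP4R4 (-0.73), SMAD3 (-0.65), FOXO1 (-0.64), the non-coding host gene listed as MIR146A (-0.63), JAG1 (-0.46) and P4HA2 (-0.45). The difference was above 0 for EGR1 (0.43), EMP2 (1.1), YTHDF2 (1.85), RP11-542C16.2 (2.2) and UPK3BL (2.24). RP11-542C16.2 and UPK3BL passed the filter only through the PINT shRNA1+LPS libraries, which favours a difference above 0. RP11-542C16.2 had 1.47, 1.59 and 2.97 there and means of 0.0023, 0.00608 and 0.0329 in LPS, Control and PINT shRNA1. GENCODE lists it as overlapping GPS2 and NEURL4 on the same strand. Calls for JAG1, PPP4R4, UPK3BL, MIR146A, CCL20, EGR1, SMAD3 and IGFL1 were lost in 14, 13, 13, 11, 10, 7, 3 and 1 of 21 alternatives, and those for the other 13 genes held in all of them.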

How the results depend on the processing

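The number of genes called between PINT shRNA1+LPS and LPS was 4792, and it ranged from 2948 to 4269 when 1 library was left out. With a replicate block it was 3425, and with the GC correction and the block together 3017. The difference with and without LPS was called for 21 genes, for 16 to 25 with 1 library left out and for 13 with the block. PINT shRNA1 against Control gave 3667, then 2033 to 2644 with 1 library left out and 2026 with the block. No pairing by replicate number was visible: deviations of same-numbered libraries correlated at 0.0141, -0.0271 and -0.0158, and numbers 2 and 3 correlated higher with another number. With 3 libraries in each group, these values cannot show that the libraries were unpaired. LINC-PINT was 0.49 to 0.72 with 1 library left out and 0.61 with the block (limma, adjusted p = 0.0404).

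Over 186 named genes and 3711 comparisons with an alternative, 3564 kept direction and call, 135 lost the call, 2 gained it and 10 changed sign. Most of these genes were named for a large change or a small p in the main fit. A high share kept was therefore likely beforehand and does not speak for all called genes. With 1 library left out, EZH2 ranged from -0.014 to 0.047, COL1A1 from -0.0027 to 0.25 and CXCL6 from -0.14 to 0.065. The sign changes were EZH2 (-0.021 with median scaling, -0.0021 with quantile normalization, -0.014 without LPS replicate 1), MT-ND1 (-0.11 with quantile normalization), COL1A1 (-0.0027 without LPS replicate 3, -0.041 with the GC correction with or without the block) and CXCL6 (0.039 and 0.045 without LPS replicate 1 or 2, 0.065 without PINT shRNA1+LPS replicate 1). The causes were not tested. Total counts are unknown, the PINT shRNA1+LPS libraries were deeper than the LPS libraries, and low genes are the least certain.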

Other observations

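Gene types differed in their share of calls. Over all tested genes 18% were called higher and 11.7% lower in PINT shRNA1+LPS. Of 147 small nucleolar RNA genes tested, 22 were higher (15%) and 2 lower (1.36%), with a median log2 change of 0.25. Of 880 antisense genes, 122 were higher (13.9%) and 44 lower (5%), with a median of 0.11. Of 12378 protein-coding genes, 2373 were higher (19.2%) and 1681 lower (13.6%), with a median of 0.042. Neither of the non-coding types was called higher more often than all genes, and both were called lower less often. Small RNAs are poorly measured by libraries of this kind, and without known strand the antisense values may hold reads of their partner genes.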
